A study of Arabidopsis thaliana with 4 samples.

Results

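Suberin is the polyester of fatty acids, glycerol and ferulic acid that plants lay into the walls of the root endodermis, of cork and of wounded surfaces. The 10 genes described here encode the enzymes that make its monomers and associated waxes. They were taken by locus identifier and make up 10 of the 32833 genes in the count table. RNA was sequenced from callus of Arabidopsis thaliana, the disorganised growth that forms when a piece of hypocotyl (the seedling stem below the leaves) is kept on a medium rich in auxin. The groups were the wox5-1 wox7-1 double mutant, which carries mutant alleles of both homeobox genes WOX5 and WOX7, and its Col-0 wild type, with 2 libraries each. Seedlings of both genotypes grew for 9 days in the dark, and explants of about 1 cm were then held under 24 h light at 22 °C on medium with 2% sucrose, 11 µM of the auxin 2,4-dichlorophenoxyacetic acid and 0.2 µM of the cytokinin kinetin. The stage is labelled as 6 days, and the protocol gives 5 to 6 days. About 100 calli were used per extraction. Whether the replicates were separate cultures is not stated, so the p-values rest on the spread between these 4 libraries, which may be technical.

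In the known pathway, a fatty acyl chain is lengthened by ketoacyl-CoA synthases such as KCS2, oxidised at its end by the cytochrome P450 enzymes CYP86A1 and CYP86B1, and joined to glycerol by the acyltransferases GPAT5 and GPAT7. The fatty acyl-CoA reductases FAR1, FAR4 and FAR5 divert chains to primary alcohols. ASFT couples feruloyl-CoA to the oxidised acids, and FACT makes caffeate esters of the alcohols, which are found in root waxes. MYB transcription factors, among them MYB92, MYB93, MYB107, MYB9, MYB41 and MYB39, are known activators of this set in roots and seed coats.

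Reads assigned to genes numbered 35078420 and 40008661 in the mutant, against 30041268 and 35975440 in the wild type. Values are given as CPM, read counts scaled to the size of the library, and 3 reads correspond to 0.0770 to 0.0986 CPM. The targeted gene WOX5 had 9 and 33 reads in the mutant libraries, against 4378 and 5268 in the wild type. WOX7 had 790 and 864 reads in the mutant, against 449 and 473 in the wild type, which leaves the wox7-1 allele unchecked because the count covers all of the gene. Of 6 genes typical of callus founder tissue, all were read in every library. On the log2 scale LBD17 rose by 1.93 (SE 0.14) and LBD18 by 0.67 (SE 0.07), while 1 other member, SCR, fell. The list summed to 1326 and 1179 CPM in the mutant, against 1461 and 1417 CPM in the wild type. In these bulk samples, fewer cells of a type and less RNA per cell cannot be told apart.

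MYB factors bind AC elements, so the window from 250 bases before to 50 bases after the annotated start of each of the 10 genes was searched on both strands for the 4 spellings ACCTACC or ACCAACC or ACCTAAC or ACCAAAC. At least 1 of these was present in 2 of the 10 windows, and in 4469 of 27443 windows of all protein-coding genes (16.3%). The windows with a match are shown because their genes, GPAT7 and ASFT, also varied most between libraries of a genotype, and that of GPAT5 because it is the closest relative of GPAT7 in the set. They lie at chr5:1834797-1835096 (GPAT7), chr5:16431054-16431353 (ASFT) and chr3:3595444-3595743 (GPAT5), all on the plus strand of the RefSeq genome TAIR10.1, and are written 5′ to 3′ with AC elements in capitals.
GPAT7: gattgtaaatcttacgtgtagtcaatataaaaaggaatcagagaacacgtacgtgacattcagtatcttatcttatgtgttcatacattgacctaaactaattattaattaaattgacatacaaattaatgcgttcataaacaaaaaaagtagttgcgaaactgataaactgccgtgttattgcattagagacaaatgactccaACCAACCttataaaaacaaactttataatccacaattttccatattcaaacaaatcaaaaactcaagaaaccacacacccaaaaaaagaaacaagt
ASFT: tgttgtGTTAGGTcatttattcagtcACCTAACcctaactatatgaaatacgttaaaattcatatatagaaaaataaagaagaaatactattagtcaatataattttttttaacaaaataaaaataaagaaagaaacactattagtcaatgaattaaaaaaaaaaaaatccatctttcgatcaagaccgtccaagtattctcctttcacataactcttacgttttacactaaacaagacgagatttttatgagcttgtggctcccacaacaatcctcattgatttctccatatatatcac
GPAT5: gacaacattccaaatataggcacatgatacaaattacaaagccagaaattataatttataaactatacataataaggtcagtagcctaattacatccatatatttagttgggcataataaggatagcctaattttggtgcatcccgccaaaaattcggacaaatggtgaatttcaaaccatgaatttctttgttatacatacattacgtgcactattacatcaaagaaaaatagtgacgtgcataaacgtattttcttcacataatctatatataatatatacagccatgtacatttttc
The GPAT7 window holds ACCAACC with its first base 46 bases before the start. The ASFT window holds ACCTAAC on both strands, at 244 and 224 bases before the start, on the minus and the plus strand. No match says only that these letters are not in this window.

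In the callus of the mutant, genes for the oxidation, glycerol transfer and phenolic coupling of suberin and wax lipids stood above the wild type. The reductase genes FAR4 and FAR5 did so too, while FAR1 and KCS2 did not. Among the genes that stood higher, GPAT7, ASFT and FAR5 did not pass the threshold given below. Over all 18716 tested genes, 6.06% rose, 5.81% fell and 11.9% changed in either direction (quasi-likelihood test of edgeR with Benjamini-Hochberg adjustment, threshold 0.05). Of the 10 suberin genes, all of which passed the filter on low counts, 5 rose, 0 fell and 5 were not called. The 5 that rose were FACT, CYP86A1, CYP86B1, GPAT5 and FAR4. With an unadjusted p below 0.05, 8 were higher and 1 was lower, against 17.0% higher and 16.3% lower over all tested genes. The median log2 fold change of the 10 was 2.27, against -0.0011 over all tested genes. Both mutant libraries lay above both wild type libraries for 8 of the 10, and 31.5% of all tested genes did so. FAR1 had both mutant libraries below the wild type, and either kind of separation was seen in 64.4% of tested genes. DESeq2 counted 7 of the 10 as higher and 1 as lower, and 11.5% higher and 9.23% lower over the 19032 genes to which it gave an adjusted p. Each of the 5 calls was lost when either wild type library was left out, which left 0 genes of the whole table past the threshold by edgeR and 3428 and 3346 genes at an unadjusted p below 0.05. Without mutant replicate 2, 3 of the 10 rose.

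**Figure D1:**
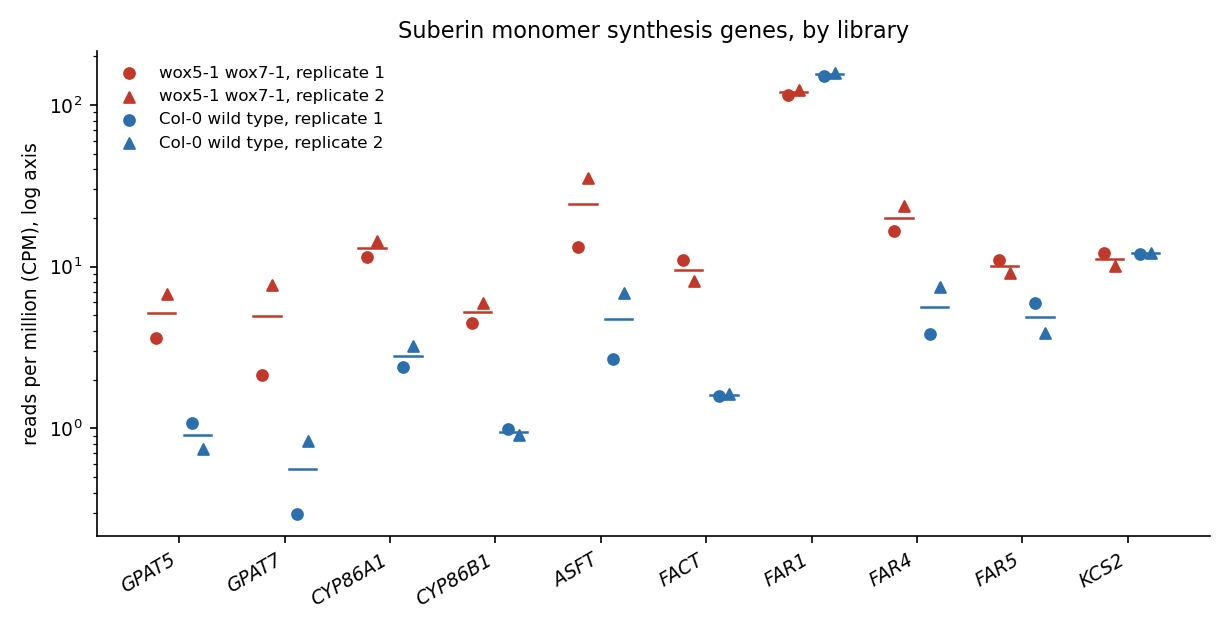
CPM (log axis) of the 10 suberin monomer synthesis genes in each library, with mutant libraries in red left of wild type libraries in blue, circles for replicate 1, triangles for replicate 2 and a line at each mean. For 8 genes both red points lie above both blue points, FAR1 has the opposite order and KCS2 overlaps.

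Both P450 genes rose. CYP86A1, an omega-hydroxylase of fatty acids (AT5G58860, chromosome 5 from 23765791 to 23768111, minus strand, 2 exons), had 11.4 and 14.5 CPM in the mutant libraries, against 2.40 and 3.21 CPM in the wild type. The lowest mutant value was above the highest wild type value, and the log2 fold change was 2.21 (SE 0.24, edgeR adjusted p = 0.0205). CYP86B1, an omega-hydroxylase of very long chains (AT5G23190, chromosome 5 from 7803141 to 7805968, minus strand, 2 exons), had 4.47 and 5.98 CPM in the mutant, against 0.986 and 0.913 CPM in the wild type. It rose by 2.46 (SE 0.29, edgeR adjusted p = 0.0226), and the genotypes did not overlap. Scaled to exon length, CYP86A1 stood 3.19 and 3.03 times above CYP86B1 in the mutant libraries, and 3.04 and 4.39 times in the wild type. The ratio between these P450 genes thus overlapped between genotypes.

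Of 4 tested relatives of the CYP86 family, 0 passed the threshold by edgeR and 0 by DESeq2. At an unadjusted p below 0.05, 2 were higher and 1 lower. CYP86B2, the nearest relative of CYP86B1 in the list with 79.7% identical bases in the coding sequence, had 18 and 37 reads in the mutant and 7 and 3 reads in the wild type (log2 fold change 2.23, SE 0.71, edgeR adjusted p = 0.110). CYP86A8, an epidermal member chosen here after its values were seen, had 76.0 and 90.9 CPM in the mutant, against 102 and 107 CPM in the wild type (log2 fold change -0.33, adjusted p = 0.121).

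The glycerol acyltransferases gave large but uneven values. GPAT5, widely used as a reporter of suberised cells (AT3G11430, chromosome 3 from 3595694 to 3597952, plus strand, 2 exons), had 3.59 and 6.77 CPM in the mutant, against 1.09 and 0.747 CPM in the wild type. The mutant libraries were both higher, with 127 and 264 reads against 33 and 27, and the log2 fold change was 2.50 (SE 0.44, edgeR adjusted p = 0.0402). Without mutant replicate 2 it was 1.98 and its call was lost (adjusted p = 0.0832). GPAT7, its paralogue (AT5G06090, chromosome 5 from 1835047 to 1837037, plus strand, 2 exons), had 2.15 and 7.75 CPM in the mutant, against 0.296 and 0.830 CPM in the wild type. It had the largest fold change of the 10, at 3.11, with the largest SE, 0.85, and did not pass the threshold (edgeR adjusted p = 0.0838). The value depended on single libraries: it was 1.92 without mutant replicate 2, below FACT, CYP86B1, CYP86A1 and GPAT5 in the same fit, and 4.04 without wild type replicate 2.

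The spread of GPAT7 between libraries followed the replicate number in both genotypes. Replicate 2 held 3.60 times the CPM of replicate 1 in the mutant (exact 95% interval 2.79 to 4.70, counting error only) and 2.80 times in the wild type (1.30 to 6.71). For GPAT5 the same ratio was 1.88 in the mutant (1.52 to 2.35) and 0.688 in the wild type (0.398 to 1.18). GPAT7 relative to GPAT5, scaled to exon length, stood at 0.638 and 1.22 in the mutant, against 0.291 and 1.18 in the wild type. Low values thus belonged to replicate 1 of both genotypes and high ones to replicate 2. The labels do not say what the number marks. Coding sequences of the pair share 78.2% of aligned bases, with no common run above 17 bases.

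Of 6 tested relatives of the GPAT family, 1 fell and 0 rose by edgeR, and 5 were not called. At an unadjusted p below 0.05, 2 were higher and 3 lower, and DESeq2 gave the same counts. GPAT2, a family member, had 1.16 and 0.718 CPM in the mutant, against 3.03 and 3.43 CPM in the wild type (log2 fold change -1.78, SE 0.36, edgeR adjusted p = 0.0495), a call lost with RLE scaling (adjusted p = 0.05001) and without mutant replicate 2 (0.102). GPAT4, which acts in cutin synthesis, had 189 and 184 CPM in the mutant, against 233 and 258 CPM in the wild type (-0.39, SE 0.09, adjusted p = 0.0555).

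The acyltransferases that attach phenolic groups were both several-fold higher, but with different scatter. FACT (AT5G63560, chromosome 5 from 25449311 to 25451419, plus strand, 2 exons) had 11.0 and 8.16 CPM in the mutant, against 1.58 and 1.63 CPM in the wild type. The mutant values lay far outside the wild type pair, and its log2 fold change was 2.57 (SE 0.24). No other of the 10 genes had a smaller adjusted p than its 0.0177 (edgeR). ASFT (AT5G41040, chromosome 5 from 16431304 to 16433305, plus strand, 4 exons) had 13.2 and 35.2 CPM in the mutant, against 2.696 and 6.83 CPM in the wild type. Its libraries did not overlap between genotypes, and its log2 fold change of 2.34 (SE 0.66) did not pass the threshold (edgeR adjusted p = 0.0900). The fold change was 1.48 without mutant replicate 2 and 3.16 without wild type replicate 2.

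Like GPAT7, ASFT was higher in replicate 2 of both genotypes, by 2.66 times in the mutant (exact 95% interval 2.39 to 2.96, counting error only) and 2.53 times in the wild type (1.97 to 3.29). FACT was 0.741 times as high in replicate 2 in the mutant (0.637 to 0.861) and 1.03 times in the wild type (0.694 to 1.55). The level of ASFT per exon length was 1.10 and 3.96 times that of FACT in the mutant, against 1.57 and 3.84 times in the wild type. The genotypes overlapped in this ratio, while the libraries numbered 1 and 2 stood apart. Without mutant replicate 1, GPAT7 and ASFT passed the threshold (adjusted p = 0.0354 and 0.0433).

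**Figure D2:**
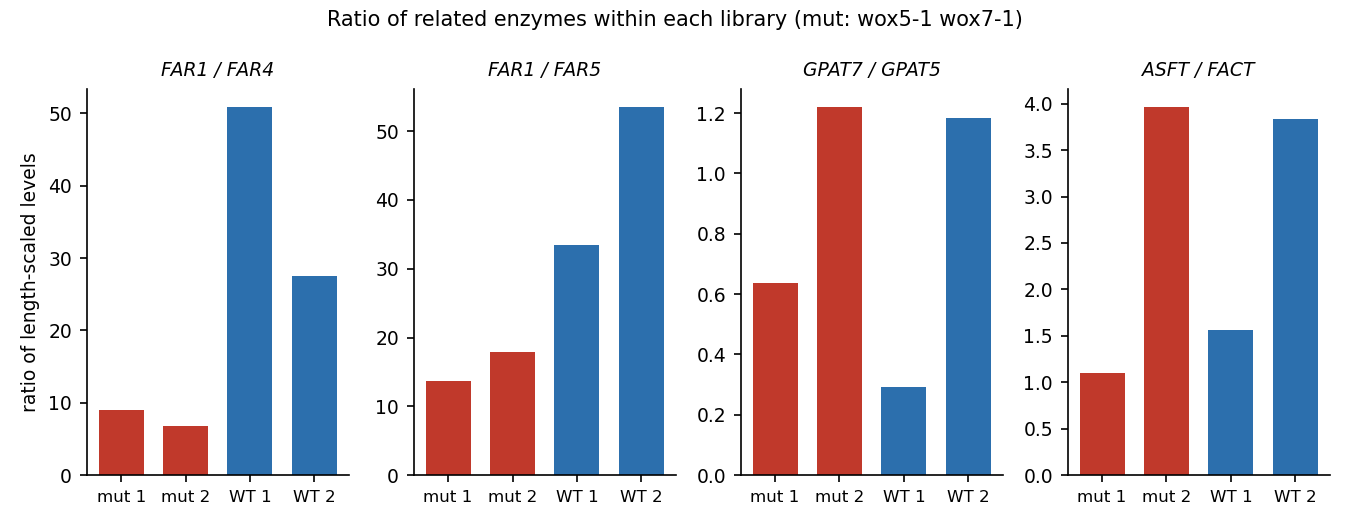
Ratio of length-scaled levels of related enzymes within each library, mutant libraries in red left of wild type libraries in blue, with a separate axis from 0 for each pair. FAR1 over FAR4 and FAR1 over FAR5 separate the genotypes, whereas GPAT7 over GPAT5 and ASFT over FACT are low in replicate 1 and high in replicate 2 of both genotypes.

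Of the fatty acyl-CoA reductase genes, FAR4 rose, FAR5 was higher without passing the threshold, and FAR1 lay below the wild type. FAR4 (AT3G44540, chromosome 3 from 16123426 to 16128030, plus strand, 9 exons) had 16.6 and 23.5 CPM in the mutant, against 3.85 and 7.44 CPM in the wild type. The genotypes did not overlap, and the gene rose by 1.83 on the log2 scale (SE 0.37), with an adjusted p of 0.0498 by edgeR, just inside the threshold. The call was lost without mutant replicate 2 (adjusted p = 0.109). FAR5, which lies next to it (AT3G44550, chromosome 3 from 16137576 to 16142270, plus strand, 10 exons), had 11.0 and 9.08 CPM in the mutant, against 5.92 and 3.87 CPM in the wild type (log2 fold change 1.04, SE 0.27, edgeR adjusted p = 0.0750).

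FAR1 (AT5G22500, chromosome 5 from 7470328 to 7474133, plus strand, 9 exons) was by far the most abundant of the 10, with 115 and 124 CPM in the mutant, against 151 and 158 CPM in the wild type. Both mutant libraries were lower, and the log2 fold change of -0.37 (SE 0.08) missed the threshold narrowly (edgeR adjusted p = 0.0511). It passed with DESeq2 (adjusted p = 0.00301) and without the filter on low counts (0.0487). Per exon length, FAR1 exceeded FAR4 by 8.94 and 6.80 times in the mutant libraries, against 50.8 and 27.5 times in the wild type. It exceeded FAR5 by 13.7 and 17.9 times in the mutant, against 33.4 and 53.4 times in the wild type. Neither ratio overlapped between genotypes. An exact permutation test of such a ratio, two-sided with 2 libraries against 2, cannot give a p below 0.333.

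The other members of the reductase family were almost absent. FAR2, FAR3, FAR7 and FAR8 had 0 reads in all 4 libraries, which allows up to 0.0770 to 0.0986 CPM in a library, and FAR6 had 2 reads, both in wild type replicate 1. FAR8 shares 87.5% of aligned coding bases with FAR5, the highest identity of the 14 pairs compared here, and still had no read. The longest runs that FAR8 shares are 36 bases with FAR4 and 35 bases with FAR5. FAR4 and FAR1 share 77.0%, and the longest run common to both coding sequences is 28 bases. This run is shown because a read wholly within it would fit both genes exactly. The read length is not given, so whether any read did is not known. The run crosses an exon junction at chr3:16125991-16126106 in FAR4 and chr5:7472210-7472323 in FAR1, both on the plus strand.
FAR4 and FAR1: caagggcaaagcttcatggatggccaaa

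KCS2, a ketoacyl-CoA synthase known to lengthen the chains used for root suberin (AT1G04220, chromosome 1 from 1119699 to 1122786, minus strand, 2 exons), had 12.1 and 10.1 CPM in the mutant, against 12.0 and 12.2 CPM in the wild type. It is the only gene of the 10 whose genotypes overlapped, and its log2 fold change was -0.13 (SE 0.14, adjusted p = 0.585 by edgeR). Its annotated exons overlap for 1258 of 2044 bases (61.5%) with the non-coding gene AT1G04247 on the other strand, which had 9.06 and 8.46 CPM in the mutant, against 11.9 and 11.4 CPM in the wild type. Without a stated strand setting, reads of this pair cannot be told apart. A further 41 exon bases of KCS2 overlap AT1G04210, also on the other strand. That gene had 5916 and 5699 reads in the mutant, against 5203 and 5930 in the wild type. Exon overlaps of ASFT (63 bases), FAR1 (157) and FAR4 (198) involve genes of at most 5 reads in any library, also on the other strand. Without a stated strand setting, such low counts do not show that these overlapping genes were silent.

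KCS20, which acts with KCS2 in root suberin, was the far more abundant of the pair: per exon length KCS2 stood at 0.0525 and 0.0398 times the level of KCS20 in the mutant, against 0.0494 and 0.0457 times in the wild type. The coding sequences share 84.0% of aligned bases. Their longest common run, 53 bases, is shown because it is the longest of the 14 pairs and a read wholly within it would fit both genes. It lies at chr1:1120013-1120065 on the minus strand in KCS2 and at chr5:17588295-17588347 on the plus strand in KCS20.
KCS2 and KCS20: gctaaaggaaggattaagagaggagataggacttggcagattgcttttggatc
Of 8 tested relatives of the KCS family, 0 passed the threshold by edgeR. DESeq2 counted 2 as higher and 1 as lower, and at an unadjusted p below 0.05 in edgeR 2 were higher and 3 lower, beside the 17.0% and 16.3% over all tested genes. KCS6, which acts in wax synthesis, had 673 and 671 CPM in the mutant, against 533 and 508 CPM in the wild type (log2 fold change 0.37, SE 0.08, adjusted p = 0.0551).

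**Figure D3:**
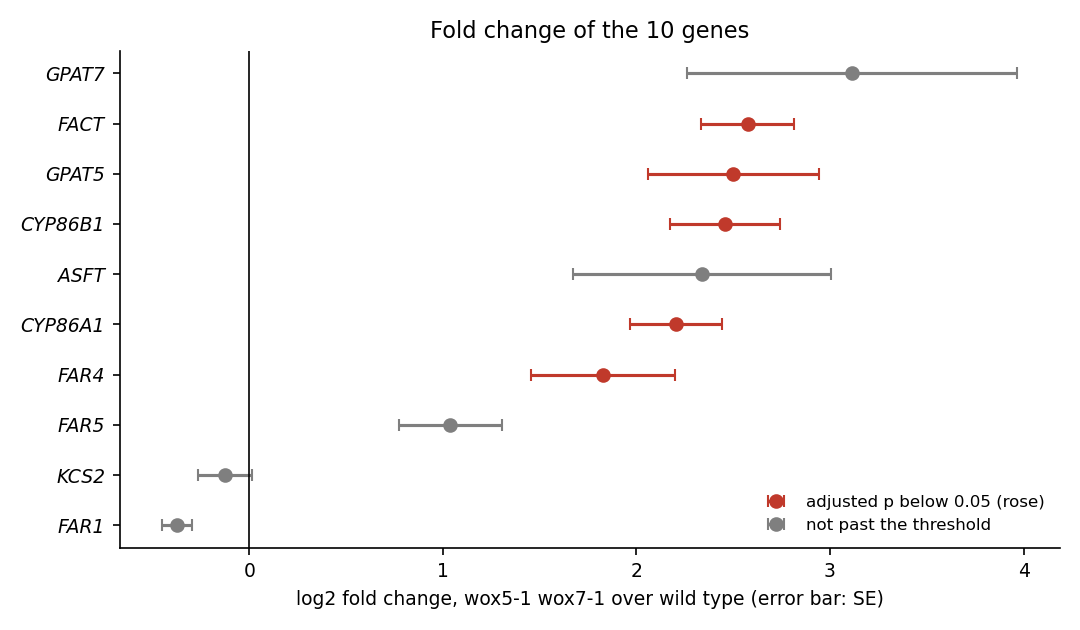
Log2 fold change of the mutant over the wild type for the 10 genes, ordered by size, with bars for the SE, in red where the edgeR adjusted p was below 0.05. The values run from -0.37 (FAR1) to 3.11 (GPAT7), and GPAT7 and ASFT have the widest bars.

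Per exon length (CPM per kilobase), FAR1 led in both genotypes, at 52.6 ± 2.76 in the mutant and 68.1 ± 2.17 in the wild type (SD, n = 2 each). In the mutant it was followed by ASFT (13.3 ± 8.52), CYP86A1 (6.95 ± 1.16), FAR4 (6.84 ± 1.66), FACT (5.73 ± 1.21) and KCS2 (5.43 ± 0.684), neighbours whose library ranges overlapped. Below a gap came FAR5, GPAT7, GPAT5 and CYP86B1, again with overlapping ranges, between 3.38 ± 0.459 and 2.25 ± 0.458. In the wild type KCS2 was next after FAR1, at 5.92 ± 0.0462, and did not overlap with ASFT (2.61 ± 1.60), the third. FAR4, FAR5 and CYP86A1 overlapped with their neighbours from there to 1.504 ± 0.306, FACT stood alone at 0.960 ± 0.0226, and GPAT5, CYP86B1 and GPAT7 lay between 0.458 ± 0.120 and 0.300 ± 0.201. FAR1 made up 55.8% and 48.4% of the summed length-scaled level of the 10 genes in the mutant, against 82.6% and 80.0% in the wild type.

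As a sum over reads, the 10 genes held 201 and 245 CPM in the mutant, against 182 and 196 CPM in the wild type, a ratio of means of 1.18. Leaving FAR1 and KCS2 aside, a choice made after their values were seen, the other 8 summed to 73.6 and 111 CPM in the mutant, against 18.8 and 25.5 CPM in the wild type.

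Regulators and exporters of the pathway were counted from lists chosen with earlier results of these data known. Of 7 suberin MYB genes, 5 were tested, 3 rose, 0 fell and 2 were not called, and the list summed to 134 and 146 CPM in the mutant, against 3.45 and 4.04 CPM in the wild type. MYB92 made up most of the mutant sum, with 121 and 124 CPM against 1.22 and 1.19 CPM in the wild type, and it showed none of the difference between replicates seen for GPAT7 and ASFT. MYB107 had 5.58 and 8.03 CPM in the mutant, against 0.691 and 0.581 CPM in the wild type (log2 fold change 3.42, SE 0.32, edgeR adjusted p = 0.0176). Among 5 ABCG exporter genes, 4 were tested and 2 rose. ABCG6, an exporter of suberin lipids, had 4.10 and 4.92 CPM in the mutant, against 1.12 and 1.13 CPM in the wild type (log2 fold change 2.00, SE 0.26, adjusted p = 0.0253). ABCG20, of the same group, rose by 0.58 (SE 0.12, edgeR adjusted p = 0.0485). ABCG2 had 0 reads in all libraries, and 2362 of its 2479 annotated exon bases overlap a gene on the other strand. Because the strand setting is not stated, these 0 reads do not show that ABCG2 was silent. Without mutant replicate 2 the adjusted p was 0.0634 for ABCG6 and 0.122 for ABCG20.

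Supply routes differed in size from the suberin genes. Of 10 tested genes that lead to feruloyl-CoA, the donor used by ASFT, 5 rose, 0 fell and 5 were not called, with a median log2 fold change of 0.50. The coumarate ligase genes 4CL1 and 4CL2 rose by 1.07 (SE 0.09, edgeR adjusted p = 0.0160) and 0.94 (SE 0.10, adjusted p = 0.0205). HCT, an acyltransferase of the same route and a relative of ASFT, rose by 0.59 (SE 0.09, adjusted p = 0.0306), while DCR, a cutin acyltransferase, had 103 and 75.7 CPM in the mutant, against 75.3 and 78.6 CPM in the wild type. Of 6 genes for fatty acid activation and the elongase core, 0 passed the threshold by edgeR, and their median was -0.28. At an unadjusted p below 0.05, and likewise by DESeq2, 1 was higher and 3 were lower. CER10, the enoyl-CoA reductase of the elongase, had 131 and 122 CPM in the mutant, against 155 and 163 CPM in the wild type (log2 fold change -0.33, SE 0.08, adjusted p = 0.0652).

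Markers of cell types that could carry or border suberin also moved, and their part in the values of the suberin genes was not tested. Of 8 Casparian strip and endodermis genes, 4 were tested and 1 rose, MYB36, with 20.9 CPM in both mutant libraries, against 2.79 and 1.69 CPM in the wild type. The list summed to 23.8 and 23.6 CPM in the mutant, against 4.37 and 3.13 CPM in the wild type, and MYB36 held most of the mutant sum. Of the membrane scaffold genes that define the strip, CASP1 had 0 reads in all libraries, and CASP2, CASP4 and CASP5 had at most 17 reads in any library. SCR, a ground tissue regulator counted in the callus founder list, fell by 0.73 on the log2 scale (SE 0.08, edgeR adjusted p = 0.0223). It had 176 and 183 CPM in the mutant, against 310 and 284 CPM in the wild type. Of 7 xylem vessel genes 2 rose, XCP1 by 3.40 (SE 0.53) and LAC4 by 2.67 (SE 0.49), and the list summed to 29.2 and 19.2 CPM in the mutant, against 14.4 and 12.3 CPM in the wild type. Both calls were lost without mutant replicate 1 (adjusted p = 0.0501 and 0.0771), and XCP1 stood at 4.14 without wild type replicate 1.

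Of 4 root cap genes, 3 were tested and 1 rose, SMB, by 3.82 (SE 0.26), with 85.8 and 89.4 CPM in the mutant, against 7.76 and 4.73 CPM in the wild type. The list summed to 88.2 and 116 CPM in the mutant, against 9.21 and 18.3 CPM in the wild type, and SMB held most of the mutant sum. BRN1 had 0.509 and 11.6 CPM in the mutant, against 0.230 and 5.95 CPM in the wild type. BFN1, a nuclease gene of dying root cap cells, had 1.78 and 14.4 CPM in the mutant, against 1.22 and 7.66 CPM in the wild type. Both BRN1 and BFN1 overlapped between genotypes and were high in replicate 2 of each, the order also seen for GPAT7 and ASFT. This order was not particular to root cap genes. Replicate 2 held 19.6 times the CPM of replicate 1 for LBD29, of the callus founder list, in the mutant and 9.25 times in the wild type. For MYB39, of the suberin MYB list, it held 3.17 and 2.24 times. These ratios rest on few reads in replicate 1. LBD29 had 6 there in the mutant and 4 in the wild type, and MYB39 had 32 and 12. Of 8 cutin and epidermis genes 3 fell and 1 rose. PDF2, which maintains epidermal identity, fell by 1.13 on the log2 scale (SE 0.19, edgeR adjusted p = 0.0372), and CER1, of alkane synthesis, rose by 4.02 (SE 0.73, adjusted p = 0.0420). Without mutant replicate 1 the value of CER1 was 2.83. ATML1 had the largest fall of the list, 3.16 (SE 0.62, adjusted p = 0.0474 by edgeR). The list summed to 2080 and 2222 CPM in the mutant, against 2465 and 2620 CPM in the wild type. CER3, which was not called, held most of each sum, with 1616 and 1531 CPM in the mutant, against 1315 and 1341 CPM in the wild type.

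**Figure D4:**
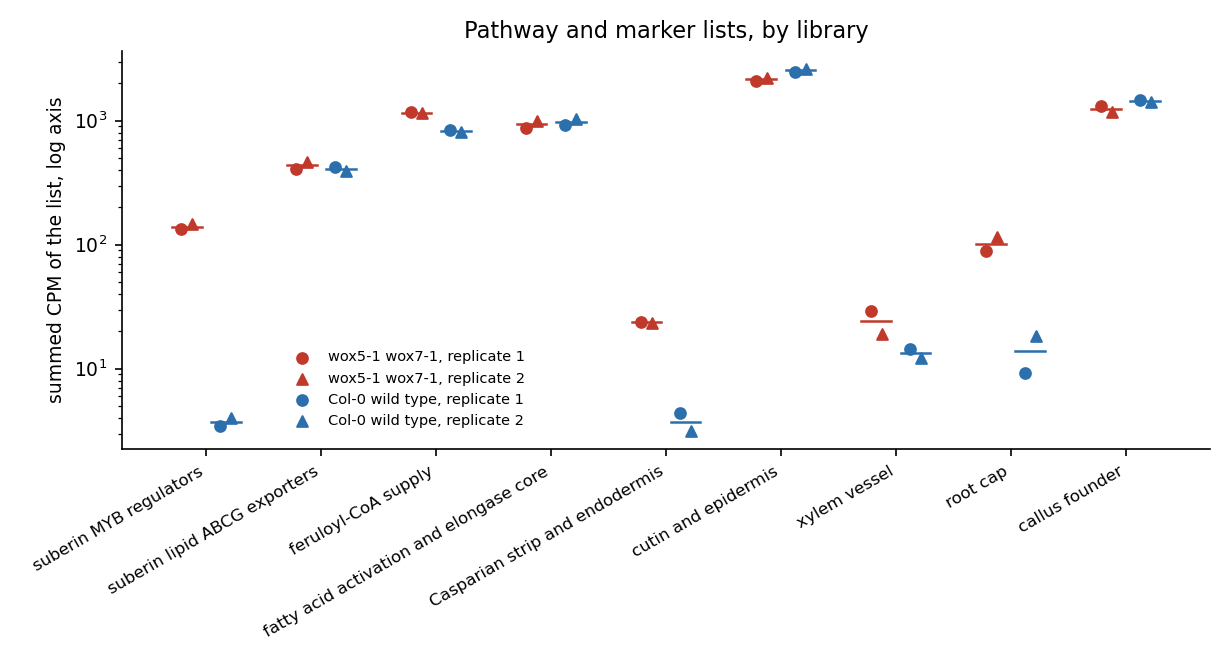
Summed CPM (log axis) of pathway and marker lists in each library, mutant in red left of wild type in blue, circles for replicate 1, triangles for replicate 2 and lines at the means. The MYB list differs most, at 134 and 146 CPM in the mutant and 3.45 and 4.04 CPM in the wild type, while the elongase core and ABCG lists overlap between genotypes.

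The genes whose profile over the 4 libraries came closest to that of GPAT5 were not from the suberin pathway lists. By Euclidean distance between log2 CPM profiles, each centred on its own mean, they were AT5G22540 (0.118), AT3G01175 (0.133), AT1G09665 (0.134), AT2G32140 (0.162) and GSTU11 (0.174), a glutathione transferase gene. The nearest of the other 9 suberin genes was CYP86B1, at 0.447, and the farthest was FAR1, at 2.84. With 4 libraries this likeness is a description only.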

How the data were processed

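The authors deposited a table of whole-number read counts per gene for 4 libraries of hypocotyl-derived callus, with gene identifiers and no coordinates. Per the submitters' processing notes, the genome build was TAIR10 and the tools included STAR 2.7.2b, Trim Galore 0.5.0 and DESeq2, with no roles stated. How reads were counted, with which annotation, read length and strand setting, is not given in the sources used. Every deposited count was at least 10. Over 4897 genes of low mean (over 10, at most 20), replicate variance was 0.643 (mutant) and 0.448 (wild type) times the mean as deposited, and 2.96 and 2.44 times after subtraction, so 10 was read as an added constant, an inference from the values, and subtracted.

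Genes were kept by filterByExpr (18716 of 32833), scaled by TMM and tested in R 4.3.3 with edgeR 4.0.16 (glmQLFit, glmQLFTest, two-sided) on all 4 libraries without covariates, at a threshold of 0.05 after Benjamini-Hochberg adjustment across every tested gene. The steps were tested on simulated data. The SE was computed as |log2 fold change| over the square root of F. Alternatives were RLE scaling, no filter, a filter of CPM of at least 1 in 2 libraries, DESeq2 1.42.0, the counts as deposited (with a moving-average dispersion trend), the replicate number as a block, and leaving out each library. Levels per length are CPM per kilobase of the union of annotated exons. Positions, exon lengths, coding sequences and promoter windows come from the RefSeq genome and annotation TAIR10.1, which matched 32548 identifiers. Coding sequences were aligned globally with Biopython 1.88. Intervals and the floor of 3 reads cover counting error only, because reads carry no molecular identifiers and so are not independent molecules.

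The 10 genes, the lists and the tests were chosen with earlier results of these data known. All 10 were named, and from every other list the 2 tested genes with the smallest p were named where at least 1 passed, otherwise 1. Genes named outside this rule, chosen after their values were seen, are those at 0 reads, CASP1, CASP2, CASP4 and CASP5 beside their list, KCS20, BRN1, AT1G04247 and CYP86A8. SCR, LBD29, MYB39, ATML1, CER3 and AT1G04210 were also named in this way. The values of 1 listed gene are not reported here.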

Additional observations from a re-analysis of the deposited data

How the results depend on the processing

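The 5 rises among the 10 genes were also called with RLE scaling, without a filter and with the stricter filter, and no direction among the 10 changed under scaling or filter. The count of genes called in the whole table was 2223, and became 3936 with DESeq2, 3921 with the counts as deposited and 4750 with the replicate block. Leaving out 1 library gave 0 to 2493 genes, 0 without either wild type library and 1198 without mutant replicate 2. Of the 10 suberin genes, 8 rose with the counts as deposited, 8 rose with the replicate block (GPAT7, ASFT and FAR5 beside the 5, at adjusted p = 0.00628, 0.00251 and 0.0180), and 0 to 7 rose when 1 library was left out. FAR1 fell without a filter, with DESeq2 and with the replicate block, 1 gene in each case, and 0 of the 10 fell when 1 library was left out. Deviations of replicate 1 from the genotype mean correlated at 0.555 across genes between genotypes, and the labels do not say what a number marks, so the block result is given only here. When 1 library was left out, the log2 fold change of KCS2 lay between -0.26 and 0.0025, that of DCR between -0.026 and 0.42 and that of BFN1 between -1.31 and 2.72. These 3 changed sign, KCS2 and BFN1 without mutant replicate 2 and DCR without mutant replicate 1. A fit with 1 library left in a genotype assumes that it varies like the other genotype, and its lost calls do not show that a difference was absent. Depth limits GPAT5, GPAT7 and CYP86B1 most, with 9 to 33 reads per wild type library.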
